A study of Mus musculus with 8 samples.

Results

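The miR-106b-25 and miR-106a-363 clusters are the paralogs of the miR-17-92 cluster, and their members were followed here in mouse kidney after lipopolysaccharide (LPS), the endotoxin shed from the outer membrane of Gram-negative bacteria. A member was a miRNA of the array whose name equalled 1 of the 6 names listed for the clusters: mmu-miR-106b-5p, mmu-miR-93-5p and mmu-miR-25-3p of miR-106b-25, and mmu-miR-106a-5p, mmu-miR-20b-5p and mmu-miR-363-3p of miR-106a-363 (the species prefix mmu is left out where it is not needed). The array carried probes under 5 of these names among 1881 miRNAs, and 4 members were bright enough to be tested. No probe was named miR-106a-5p, which is not analysed here under its own name.

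The LPS group comprised 4 arrays, replicates 6, 10, 11 and 12, from kidneys of mice that had received LPS intraperitoneally at 10 µg per g of body weight 24 h earlier, a model of septic acute kidney injury. The sham group comprised 4 arrays, replicates 5, 6, 7 and 8, from mice given saline in its place. Both groups shared the extraction of 30 mg of whole kidney and the Cy3 labelling of 100 ng of total RNA. Strain, sex and age of the mice are not given in the sources used here, and nothing states that the samples of a group are separate animals; the p-values describe the spread among these samples, which may be technical.

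MiRNAs are short RNAs that, loaded into an Argonaute protein, pair with messenger RNAs mainly through the seed, a stretch near their 5′ end, and lower the stability and translation of those messages. The miR-17-92 cluster and its paralogs arose by duplication, and their members fall into seed families that can recognise the same target sites. In mammals, the miR-106b-25 hairpins lie in an intron of Mcm7, which encodes a subunit of the replicative helicase and is activated by E2F factors as cells enter the cycle. Members with the miR-17 seed are known to repress the cell cycle inhibitor Cdkn1a (p21), and miR-25 with its relatives to repress the proapoptotic gene Bcl2l11 (Bim). In whole kidney RNA, fewer cells of a type and less RNA per cell cannot be told apart.

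The mature sequences show what ties the clusters together and where they part. They were taken from RefSeq (GRCm38.p6), in which all 6 members were found, and are written 5′ to 3′ with the seed, bases 2 to 8, in capitals. The first set shares the seed of miR-17 and is shown with miR-17-5p and miR-20a-5p, its relatives in miR-17-92.
miR-106b-5p: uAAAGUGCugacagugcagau
miR-93-5p: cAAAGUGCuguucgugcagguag
miR-106a-5p: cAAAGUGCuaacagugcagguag
miR-20b-5p: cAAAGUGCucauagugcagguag
miR-17-5p: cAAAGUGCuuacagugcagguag
miR-20a-5p: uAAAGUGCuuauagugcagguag

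The second set shares the seed of miR-92a and is shown with miR-92a-3p.
miR-25-3p: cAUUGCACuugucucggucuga
miR-363-3p: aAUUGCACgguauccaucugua
miR-92a-3p: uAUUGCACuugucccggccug

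Outside the seed the members differed from their miR-17-92 relatives to unequal degrees. Counting positions from 1 at the 5′ end, with the member's base first, miR-20b-5p differed from miR-20a-5p by C1U and C10U and was identical at 21 of 23 bases. MiR-106a-5p differed from miR-17-5p by A10U alone, at 22 of 23 bases identical. MiR-106b-5p matched miR-17-5p at 18 of 21 bases (U1C, G10U and A20G), miR-93-5p matched miR-20a-5p at 19 of 23, and miR-25-3p matched miR-92a-3p at 18 of 21. MiR-363-3p was the most distant of these, with 10 of 21 bases shared with miR-92a-3p. The miR-106b-25 genes lie on the minus strand of chromosome 5 inside Mcm7, and the miR-106a-363 genes on the minus strand of chromosome X. No other RefSeq gene was found to contain the latter. The same lookup placed Mir92-1 of miR-17-92 inside Mir17hg but found no gene around Mir17 or Mir20a.

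Because the array reads each miRNA through short complementary probes, the probes decide how far such close relatives can be separated. The longer probe of each tested member is given as deposited, 5′ to 3′, with the bases not complementary to the named miR-17-92 relative in capitals. A G facing a U, or a T facing a G, is counted as a mismatch. The longer probe of miR-363-3p, with 11 mismatches to miR-92a-3p, is left out. The miR-20a-5p probe is added with its mismatch to miR-20b-5p, and the miR-17-5p probe because it has no mismatch to miR-106a-5p.
miR-106b-5p probe against miR-17-5p: aTctgcactgtCagcac
miR-93-5p probe against miR-20a-5p: ctacctgcacGaACag
miR-25-3p probe against miR-92a-3p: TcagAccgAgacaagtgc
miR-20b-5p probe against miR-20a-5p: ctacctgcactatGagcact
miR-20a-5p probe against miR-20b-5p: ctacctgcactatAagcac
miR-17-5p probe against miR-106a-5p: ctacctgcactgt

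The miR-106b-5p probe pairs with bases 5 to 21 and is mapped by the files to chr5:138606981-138606996 (mm9, minus strand). The miR-93-5p probe maps to chr5:138606773-138606787, the miR-25-3p probe to chr5:138606605-138606621 and the miR-20b-5p probe to chrX:50095305-50095323, all on the minus strand of mm9. Each of these mapped stretches is slightly shorter than its probe. These 4 probes have 2, 3, 3 and 1 mismatches to the relative named. The miR-20b-5p probe is thus separated from miR-20a-5p by a single base, a G facing a U, and how much miR-20a-5p RNA it binds was not tested. The miR-17-5p probes of 12 and 13 bases match miR-106a-5p throughout, and the files map them both to chromosome 14 (the longer at chr14:115442916-115442928, plus strand) and to chromosome X (chrX:50095694-50095706, minus strand). A signal printed for miR-17-5p can therefore hold miR-106a-5p, and the probes cannot tell them apart. The same holds for miR-19b-3p and miR-92a-3p, whose probes also map to both chromosome 14 and chromosome X, since miR-17-92 and miR-106a-363 each encode a copy.

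The 8 arrays shared 1 slide and 1 scan. LPS arrays occupied row 2 of the slide and sham arrays row 1, so that an effect of row and one of group cannot be told apart, while an LPS and a sham array stood in each of its 4 columns. Between 342 and 359 miRNAs were above background on LPS arrays and between 336 and 375 on sham arrays, and the number of arrays limits the precision. Levels are given as log2 of the signal over the array's own 75th percentile, with the probes of a miRNA summed, and they compare arrays for 1 miRNA but not miRNAs with each other. They are relative to the other miRNAs of the array, and among the 338 tested the median difference, LPS minus sham, was -0.083.

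After LPS, miR-20b-5p was higher and the 3 members of miR-106b-25 did not pass the test in either direction. Of the 4 members tested, 1 was called higher and 0 lower at an adjusted p below 0.05 (limma, Benjamini-Hochberg over 338 miRNAs), against 14.8% of all tested miRNAs called higher, 25.4% called lower and 40.2% called in either direction. The share of members called is near that background and is not a result about the members as a group. All 6 guide arms of miR-17-92 were called higher in the same fit, with a median difference of 0.52.

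**Figure D1:**
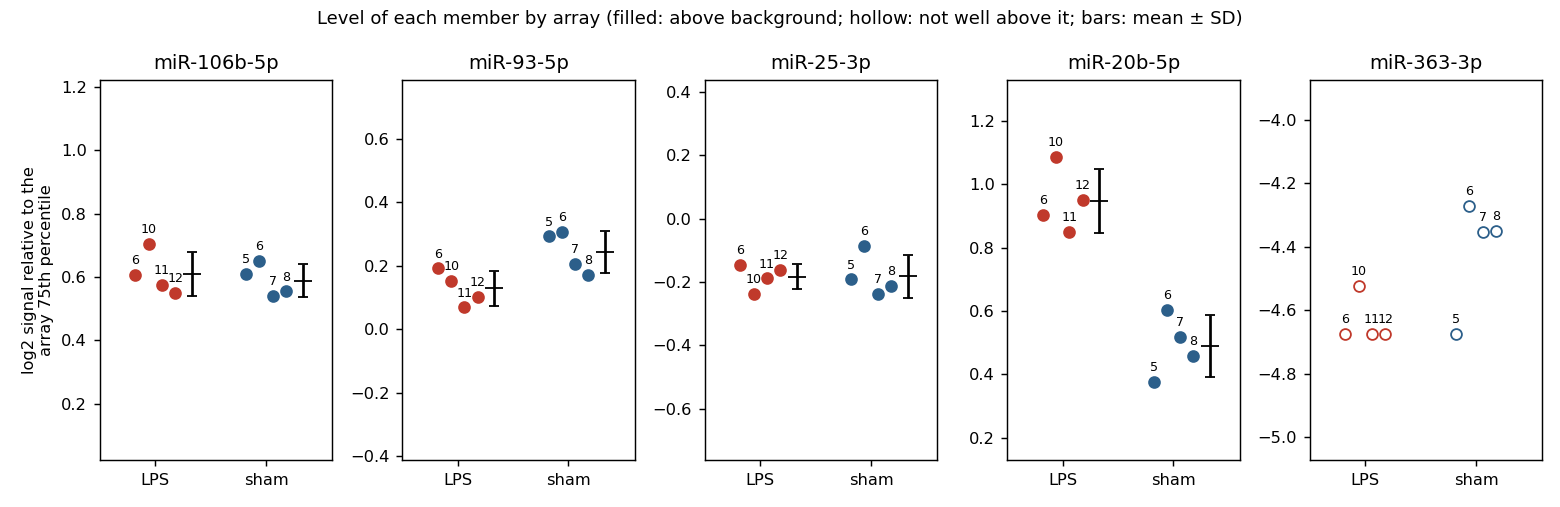
Log2 signal relative to the array's 75th percentile (y axis) of each member on every LPS and sham array; numbers are replicates, hollow points were not well above background, and bars give the mean ± SD of 4 arrays. The 4 LPS arrays lie above the 4 sham arrays for miR-20b-5p, while the groups overlap for miR-106b-5p, miR-93-5p and miR-25-3p. Each panel spans the same range of log2 units.

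Within miR-106b-25, mmu-miR-106b-5p, a repressor of Cdkn1a with the miR-17 seed, had log2 levels of 0.61, 0.71, 0.57 and 0.55 on LPS arrays 6, 10, 11 and 12, against 0.61, 0.65, 0.54 and 0.55 on sham arrays 5, 6, 7 and 8. The groups overlapped, with LPS replicate 10 highest and sham replicate 7 lowest. The mean was 0.61 ± 0.07 in LPS and 0.59 ± 0.05 in sham kidneys (SD, n = 4 each). The difference of 0.021 ± 0.055 (SE) did not pass the test in limma (adjusted p = 0.788). Its 95% interval, as a fold, ran between 0.929 and 1.11.

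The next, mmu-miR-93-5p, which has the same seed and is known to target Vegfa in mouse kidney cells, was the member of this cluster nearest to a change. Its log2 levels were 0.19, 0.15, 0.07 and 0.10 on LPS arrays 6, 10, 11 and 12, against 0.29, 0.31, 0.21 and 0.17 on sham arrays 5, 6, 7 and 8. LPS replicate 6 alone exceeded the lowest sham array, replicate 8, so the groups overlapped by that 1 array. The mean was 0.13 ± 0.05 in LPS and 0.24 ± 0.07 in sham kidneys (SD, n = 4 each), a difference of -0.12 ± 0.06 (SE). The fold was 0.923, with a 95% interval of 0.845 to 1.01, and the limma adjusted p was 0.132. That difference is close to the median of all tested miRNAs, -0.083. Within each of the 4 slide columns the miR-93-5p difference was -0.10, -0.15, -0.14 and -0.07, negative in every column. Scaled to the control probes dmr_285 and dmr_31a together, miR-93-5p passed the threshold as lower (-0.26, limma adjusted p = 0.0204).

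The third, mmu-miR-25-3p, which carries the miR-92a seed and represses Bcl2l11, was at -0.15, -0.24, -0.19 and -0.16 on LPS arrays 6, 10, 11 and 12, against -0.19, -0.08, -0.24 and -0.21 on sham arrays 5, 6, 7 and 8. The highest and the lowest of the 8 values were both from sham arrays. The mean was -0.18 ± 0.04 in LPS and -0.18 ± 0.07 in sham kidneys (SD, n = 4 each). With a difference of -0.0014 ± 0.05 (SE) and a limma adjusted p of 0.980, no tested miRNA of the 338 had a smaller difference in size. The 95% interval of its fold was 0.918 to 1.09.

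These intervals were narrow by the standard of the array. The standard errors of miR-106b-5p, miR-93-5p and miR-25-3p, about 0.06, 0.06 and 0.05 log2 units, stood below the median of 0.0821 over all tested miRNAs. A change of the size seen for miR-20b-5p would lie outside all 3 intervals. The intervals hold for the reported scaling only. With scaling to dmr_285 alone the differences were -0.24, -0.38 and -0.27, below all 3 intervals, and scaling to both control probes also lowered them.

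In miR-106a-363, mmu-miR-20b-5p, another carrier of the miR-17 seed and known in human cancer cells to repress HIF1A and VEGFA, had log2 levels of 0.90, 1.08, 0.85 and 0.95 on LPS arrays 6, 10, 11 and 12. On sham arrays 5, 6, 7 and 8 it was at 0.37, 0.60, 0.52 and 0.46. Every LPS array was above every sham array; the groups of 37.0% of all tested miRNAs likewise did not overlap. The mean was 0.95 ± 0.10 in LPS and 0.49 ± 0.10 in sham kidneys (SD, n = 4 each). The difference was 0.46 ± 0.07 (SE), 1.37-fold with a 95% interval of 1.22 to 1.54 (limma adjusted p = 0.00187), and ranked 39 of 338 from the highest. Within the 4 slide columns it was 0.53, 0.48, 0.33 and 0.49.

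The call of miR-20b-5p held without each array in turn, with adjusted p between 0.00235 and 0.00907 in limma, and in 24 of all 25 alternatives. It was lost (difference 0.19, adjusted p = 0.0603) when each array was scaled to the control probe dmr_285 alone, taken as a spike-in, an alternative chosen after seeing the data. That control was itself higher on LPS arrays (2.77 ± 0.12 against 2.50 ± 0.05 in sham, SD, n = 4 each, relative to the 75th percentile), and the scaling to it shifted the median of all tested miRNAs to -0.35. Under it miR-106b-5p (difference -0.24, adjusted p = 0.0221), miR-93-5p (-0.38, adjusted p = 0.00499) and miR-25-3p (-0.27, adjusted p = 0.0164) passed the threshold as lower.

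**Figure D2:**
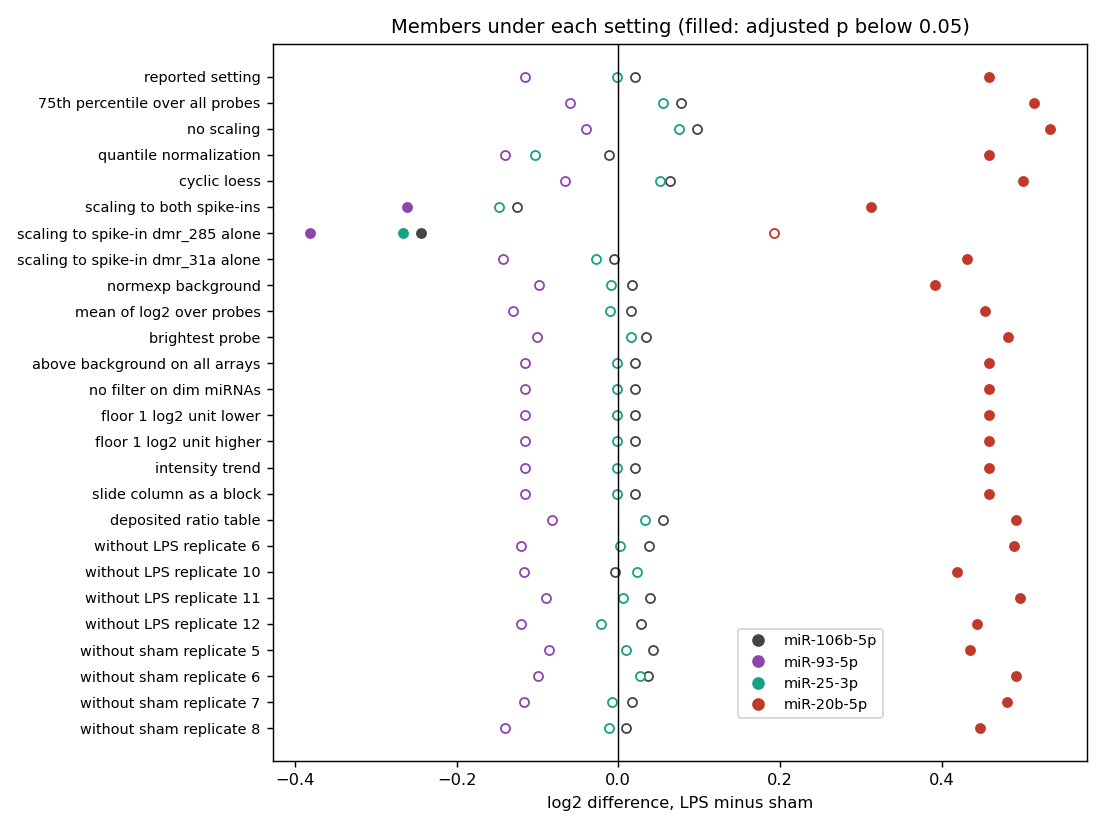
Log2 difference, LPS minus sham (x axis), of the 4 tested members under the reported setting, each alternative scaling, background or summary, and without each array; filled points had an adjusted p below 0.05. MiR-20b-5p lies right of the miR-106b-25 members in every row, and 1 scaling, to dmr_285 alone, puts it at 0.19 and not past the threshold.

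The remaining named member, mmu-miR-363-3p, a carrier of the miR-92a seed, was not well above background on any array. Its 2 probes, of 18 and 19 bases, read 7.77 to 11.2 and 8.70 to 13.9 units of processed signal, with at most 20% of their spots above background on an array. No difference is given for it. The other arms of the members (miR-106b-3p, miR-93-3p, miR-25-5p, miR-106a-3p, miR-20b-3p and miR-363-5p) were above background on 0 of 8 arrays, and so were miR-18b-5p, miR-18b-3p, miR-19b-2-5p and miR-92a-2-5p, the remaining products specific to miR-106a-363. MiR-20b-5p thus gave the sole signal above background named for that cluster alone, and how much of it comes from miR-20a-5p was not tested.

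Each tested member had 2 probes of 15 spots, which differ by 1 base in length and lie on the same stretch of the miRNA, so they repeat the measurement without being independent samples. Across arrays the spots of a member's probe varied with a coefficient of variation of 1.56% to 8.30%. Among the 633 probes tested, 38.9% were called in either direction and 14.2% higher. Both miR-20b-5p probes were called higher: the probe of 19 bases by 0.42 ± 0.07 (SE; limma adjusted p = 0.00288) and the probe of 20 bases by 0.48 ± 0.07 (adjusted p = 0.00163). On neither did the groups overlap, and the groups of 37.0% of all tested miRNAs likewise did not. The share over all probes is not given. Scaled to dmr_285 alone, the shorter probe was not called (0.16, adjusted p = 0.0965 in limma) and the longer was (0.22, adjusted p = 0.0415).

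None of the 6 probes of miR-106b-25 was called under the reported scaling, whereas all 6 were called lower with scaling to dmr_285 alone. For miR-106b-5p the probe of 16 bases differed by -0.0016 and that of 17 bases by 0.034 (limma adjusted p = 0.985 and 0.659). For miR-25-3p the probe of 17 bases differed by -0.037 and that of 18 bases by 0.016 (adjusted p = 0.669 and 0.838), so the probes of either miRNA did not share a direction. The miR-93-5p probe of 15 bases read -1.81, -1.82, -1.93 and -1.75 on LPS arrays 6, 10, 11 and 12, against -1.58, -1.64, -1.72 and -1.75 on sham arrays 5, 6, 7 and 8. Of all tested miRNAs, 37.0% had groups that did not overlap, and the share over all probes is not given. The groups of this miR-93-5p probe did not overlap, although LPS replicate 12 and sham replicate 8 nearly met. The difference of -0.16 ± 0.06 (SE, 95% interval -0.30 to -0.02) had a limma p of 0.0309 before and 0.0711 after adjustment over all probes. The miR-93-5p probe of 16 bases differed by -0.10 ± 0.06 (adjusted p = 0.203), with overlapping groups.

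**Figure D3:**
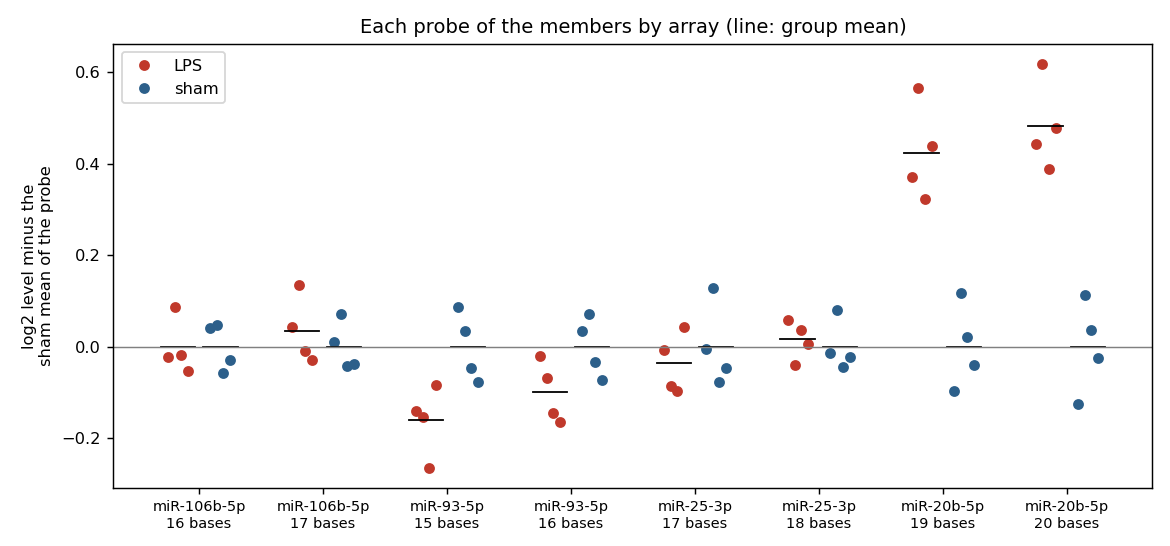
Log2 level of each probe of the tested members on every array, minus the sham mean of that probe (y axis); lines are group means. Both probes of miR-20b-5p lie above their sham arrays on all 4 LPS arrays, by 0.42 and 0.48 on average, and the LPS arrays of the shorter miR-93-5p probe lie below the sham arrays.

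The paralogs of these members in miR-17-92 gave the nearest comparison. MiR-20a-5p was at 1.55, 1.76, 1.58 and 1.65 on LPS arrays 6, 10, 11 and 12, against 0.98, 1.17, 1.06 and 0.99 on sham arrays 5, 6, 7 and 8. It was higher by 0.59 (limma adjusted p = 4.70e-04). MiR-17-5p, whose probes also match miR-106a-5p, was higher by 0.42 (adjusted p = 0.00187), and miR-92a-3p by 0.53 (adjusted p = 0.00140). The miR-17-5p probe of 13 bases was above background on all 8 arrays and differed by 0.41. The probe of 12 bases was above background on all 4 LPS arrays and on 1 of 4 sham arrays, so it entered the test through the LPS group and no difference is given for it.

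**Figure D4:**
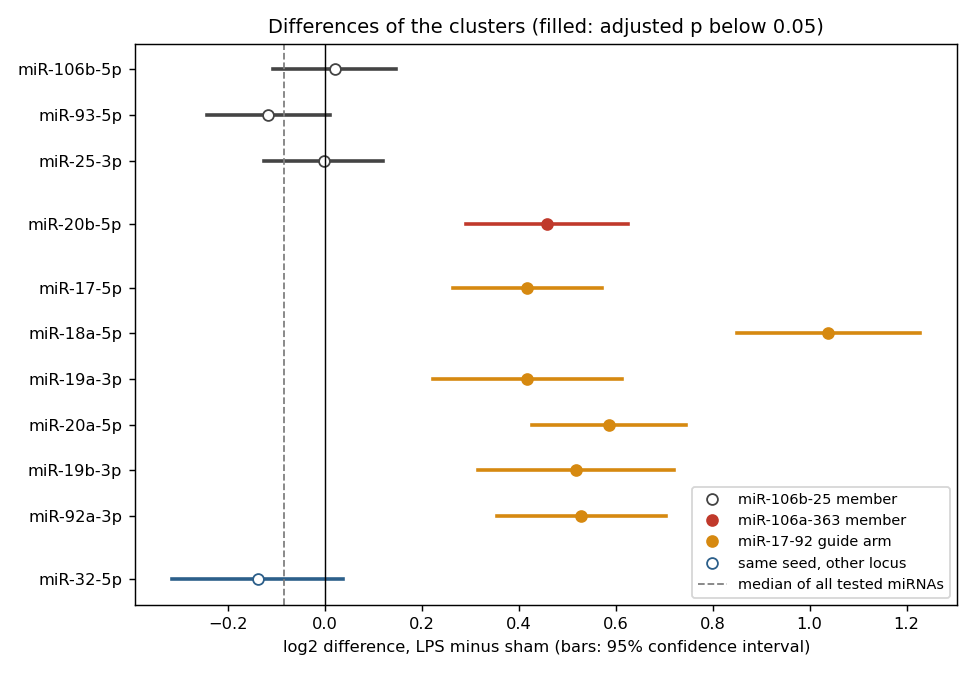
Log2 difference, LPS minus sham (x axis, bars: 95% confidence interval), of the tested members, the guide arms of miR-17-92 and miR-32-5p; filled points passed the threshold and the dashed line marks the median of all tested miRNAs, -0.083. MiR-20b-5p, at 0.46, lies among the miR-17-92 guide arms, and the miR-106b-25 members lie near 0.

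The signals of a member and of its paralog were also compared as a ratio within each array, which does not depend on the factor that scaled the array. These are ratios of probe signals and not of clusters, since the signals named miR-17-5p and miR-92a-3p can hold RNA from miR-106a-363 and the miR-20b-5p and miR-20a-5p probes differ from each other's target by 1 base. For miR-106b-5p over miR-17-5p the log2 ratio was 2.88, 2.91, 2.93 and 2.70 on LPS arrays 6, 10, 11 and 12, against 3.24, 3.21, 3.29 and 3.27 on sham arrays 5, 6, 7 and 8. For miR-93-5p over miR-20a-5p it was -1.36, -1.61, -1.51 and -1.55 on those LPS arrays, against -0.69, -0.87, -0.85 and -0.82 on those sham arrays. For miR-25-3p over miR-92a-3p it was -0.62, -0.87, -0.71 and -0.69 on LPS arrays, against -0.09, -0.28, -0.25 and -0.14 on sham arrays. In these 3 pairs every LPS array was lower than every sham array. The share of ratios between other tested miRNAs that separate the groups in this way was not computed.

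The ratio fell by 0.40 ± 0.06 (SE) for miR-106b-5p over miR-17-5p, by 0.70 ± 0.07 for miR-93-5p over miR-20a-5p and by 0.53 ± 0.07 for miR-25-3p over miR-92a-3p. The exact permutation test (2-sided) gave p = 0.0286 for each, also after Benjamini-Hochberg adjustment over the 4 pairs computed, and 4 against 4 arrays allow no smaller p. With background corrected by normexp, the first of these was -0.12, because that correction brought the difference of the dim miR-17-5p to 0.14.

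The miR-20b-5p ratio shifted in the same direction. Its log2 value relative to miR-20a-5p was -0.65, -0.68, -0.73 and -0.70 on LPS arrays 6, 10, 11 and 12, against -0.61, -0.57, -0.54 and -0.53 on sham arrays 5, 6, 7 and 8. The groups did not overlap, and the ratio fell by 0.13 ± 0.02 (SE; exact permutation p = 0.0286, adjusted p = 0.0286). Both miRNAs were higher after LPS, and the difference of miR-20a-5p was the larger of the pair. For this ratio too, the share of other ratios without overlap was not computed.

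**Figure D5:**
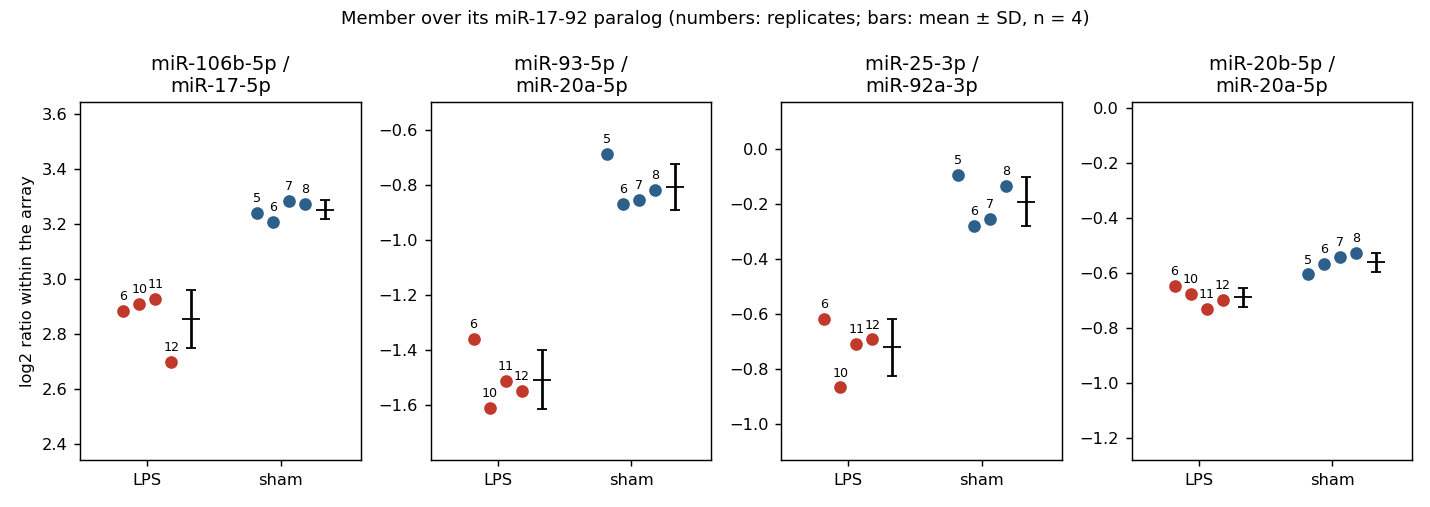
Log2 ratio of each member to its miR-17-92 paralog within the array (y axis), by group, with replicate numbers and the mean ± SD of 4 arrays. The ratios of the 3 miR-106b-25 members on LPS arrays all lie below those on sham arrays, by 0.40 to 0.70 on average, and that of miR-20b-5p to miR-20a-5p is lower by 0.13.

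The spread among arrays of the same group was compared as well. As a description over 8 arrays, which share the scaling of each array, the deviations of miR-20b-5p from its group means correlated with those of miR-20a-5p at r = 0.94, miR-19b-3p at 0.90, miR-92a-3p at 0.86, miR-19a-3p at 0.80, miR-17-5p at 0.50 and miR-18a-5p at 0.49. The 3 miRNAs most like it were miR-322-5p (0.97), miR-26b-5p (0.97) and miR-29c-3p (0.96), and 11.3% of 302 miRNAs exceeded 0.8 with it. Correlations above 0.8 with miR-20b-5p were thus not confined to the guide arms listed. The share above 0.8 differed between members, at 9.27% with miR-106b-5p, 2.65% with miR-93-5p and 0% with miR-25-3p.

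The members of miR-106b-25 are cut from 1 primary transcript. The deviations of miR-106b-5p and miR-93-5p correlated at r = 0.69, those of miR-93-5p and miR-25-3p at 0.53, and those of miR-106b-5p and miR-25-3p at 0.17, over the same 8 arrays. The standard deviations within a group were 0.04 to 0.07 for all 3. With the miR-17-92 guide arms, miR-106b-5p ranged between 0.48 for miR-17-5p and 0.88 for miR-18a-5p. The miRNAs most like miR-106b-5p were miR-148b-3p, miR-199b-5p and miR-219a-5p (0.94, 0.94 and 0.91). Those most like miR-93-5p were miR-709, miR-1187 and miR-574-5p (0.90, 0.84 and 0.83). MiR-25-3p had no miRNA above 0.8, the nearest being miR-145a-5p at 0.70, miR-3620-3p at 0.68 and miR-5622-3p at 0.67.

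By seed, the RefSeq table held 7 mouse miRNAs with AAAGUGC, of which 6 were named on the array, and 6 with AUUGCAC, all of them named on it. Of the first family, miR-17-5p, miR-20a-5p and miR-20b-5p were called higher, miR-106b-5p and miR-93-5p were not called, and miR-6383 was above background on no array. Of the second, miR-92a-3p was called higher, and miR-25-3p and miR-32-5p were not called. MiR-32-5p, encoded outside these clusters, averaged -2.03 ± 0.14 in LPS and -1.89 ± 0.05 in sham kidneys (SD, n = 4 each), a difference of -0.14 ± 0.08 (SE; limma adjusted p = 0.184). Without LPS replicate 10 it was -0.20 (adjusted p = 0.0144). MiR-92b-3p and miR-367-3p, like miR-363-3p, were not above background on any array. Each family thus held both called and uncalled miRNAs. Of all tested miRNAs 40.2% were called in either direction, so such a mix is not a result about the seed. The miR-17-5p probes also match miR-106a-5p, and those of miR-20b-5p differ from miR-20a-5p by 1 base.

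Markers of cell types were read beside these differences. Of all tested miRNAs 14.8% were called higher and 25.4% lower. Of 6 leukocyte markers tested, 2 were called higher, miR-155-5p and miR-223-3p, and 0 lower. MiR-142a-3p, miR-142a-5p, miR-150-5p and miR-342-3p were not called. Sums and summed levels of a list are given here as the log2 of its summed linear levels. For the 6 leukocyte markers the sum was 1.79 to 1.89 on LPS arrays and 1.18 to 1.64 on sham arrays. Of 4 red cell markers listed, 2 were tested and called higher, miR-451a and miR-144-3p, the second of which was above background on 2 of 4 sham arrays and so entered the test through the LPS group. The list had a summed level of 1.06 to 3.80 on LPS and -0.77 to 1.67 on sham arrays, with miR-486a-5p above background on 2 LPS and 0 sham arrays and miR-144-5p on none. Of 6 tubule markers, 3 were called lower and 0 higher, with sums of 5.94 to 6.15 on LPS and 6.09 to 6.20 on sham arrays. Neither endothelial marker was called, at sums of 4.10 to 4.27 on LPS and 4.13 to 4.23 on sham arrays, and 1 of 2 smooth muscle markers was called lower, at sums of 1.70 to 1.84 on LPS and 1.63 to 1.91 on sham arrays. The liver miRNA miR-122-5p was above background on no array. The part of these cell types in the miR-20b-5p difference was not tested.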

How the data were processed

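MiRNAs of 8 mouse kidney samples (4 LPS, 4 sham, grouped by the labels) were measured on 1-colour arrays of 4415 probes. The intensity values deposited by the authors are scanner output, background-subtracted and spatially detrended but not scaled, per the file headers, with Agilent Feature Extraction 12.0.3.1 named in the submitters' processing notes. The ratio table deposited by the authors, linear and centred per miRNA, served only as an alternative.

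Outlier spots were left out, spots averaged, each array divided by its 75th percentile over 551 probes above background on all arrays, and probes summed. Sums were floored at -4.68 (log2). A miRNA was above background where over 50% of the spots of a probe were. The 338 miRNAs above it on every array of a group were compared with limma 3.58.1 (R 4.3.3; 2-sided, Benjamini-Hochberg, threshold 0.05), as were 633 probes. The script was tested on simulated data. Named miRNAs were all members, their other arms, cluster and seed relatives, and the 3 miRNAs most like each member. Members, lists, rules and tests were chosen with earlier results of these data known.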

Additional observations from a re-analysis of the deposited data

Results flagged for a closer look

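Among the miRNAs and probes named, LPS replicate 10 stood apart from its group for miR-32-5p, at a log2 level of -1.82 where the other LPS arrays lay between -2.12 and -2.08. Of 46 groups of 4 arrays examined, this was the only one with such a gap, and chance alone would give about 2.3 (5%).

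The control probe dmr_285 of the array did not overlap between the groups and was higher in LPS. Its log2 level relative to the array's 75th percentile was 2.61 to 2.88 on LPS and 2.43 to 2.55 on sham arrays, a difference of 0.26. The other such control, dmr_31a, was at 0.93 to 1.11 on LPS and 0.86 to 1.03 on sham arrays, a difference of 0.03. The cause was not tested.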

How the results depend on the processing

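No paired analysis was possible because the groups share only 1 replicate number; slide column, with an LPS and a sham array in each, was tried as a block, under which miR-20b-5p stayed called (adjusted p = 0.00651 in limma). Alternatives changed scaling, background, probe summary, filter, floor, variance model, slide column and the arrays used; 2 scalings, to dmr_285 or to dmr_31a alone, were chosen after seeing the data. The cause of a shift was not tested unless stated.

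MiR-20b-5p kept its direction in all 25 alternatives and lost its call in 1, at 0.19 with dmr_285 alone; without each array it ranged over 0.42 to 0.50. MiR-93-5p was lower in all of them and passed the threshold at -0.26 with both controls (adjusted p = 0.0204) and at -0.38 with dmr_285 alone; without each array it was -0.14 to -0.09. MiR-106b-5p turned to -0.0115 under quantile normalization, -0.12 with both controls, -0.24 with dmr_285 and -0.0055 with dmr_31a, and was -0.0040 to 0.0425 without each array. MiR-25-3p turned to 0.0550 with the percentile over all probes, 0.0749 without scaling, 0.0522 under cyclic loess, 0.0160 with the brightest probe and 0.0329 in the deposited ratio table, and was -0.27 with dmr_285 alone and -0.0216 to 0.0263 without each array.

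Of single probes, the longer miR-106b-5p probe turned to -0.11 with both controls and -0.23 with dmr_285. The shorter was -0.0244 to 0.0264 without each array. The longer miR-25-3p probe turned to -0.13 with both controls, -0.25 with dmr_285 and -0.0108 with dmr_31a, and the shorter was -0.0768 to 0.0017 without each array. Calls also changed: with both controls, both miR-93-5p probes (-0.31 and -0.25) and the shorter miR-25-3p probe (-0.18) passed as lower, and with dmr_285 alone all 6 miR-106b-25 probes did (-0.43 to -0.23), while the shorter miR-20b-5p probe lost its call (0.16, adjusted p = 0.0965 in limma).

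Of the miR-17-92 guide arms, miR-17-5p and miR-19a-3p lost their call with dmr_285 alone (0.15 each; adjusted p = 0.0766 and 0.110 in limma), and miR-19a-3p also without the filter on dim miRNAs (adjusted p = 0.0735).

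The 4 paralog ratios kept their sign in all 11 alternatives in which they were computed. Quantile normalization and cyclic loess were not among these. Without each array they were -0.42 to -0.35 (miR-106b-5p), -0.75 to -0.66 (miR-93-5p), -0.57 to -0.48 (miR-25-3p) and -0.14 to -0.11 (miR-20b-5p), at an exact permutation p of 0.0571, the smallest that 3 against 4 arrays allow.

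Of all miRNAs, 136 were called, 50 higher and 86 lower. Without the filter on dim miRNAs 60 were called (29 higher, 31 lower), with slide column as a block 80 (45 lower) and with dmr_285 alone 251 (28 higher, 223 lower). The lower calls numbered 53, beside 55 higher, with the percentile over all probes, 49 beside 57 without scaling, 66 beside 65 under cyclic loess, 155 beside 34 with both controls, and 53 beside 46 in the deposited table. Leaving out 1 array gave 94 to 148 calls, 34 to 55 higher and 55 to 100 lower, with 55 lower without sham replicate 7 and 56 without LPS replicate 11. The median difference of all miRNAs, -0.083, was -0.23 with both controls and -0.35 with dmr_285. MiRNAs near background, miR-363-3p and the other arms among them, could not be compared at these signals.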
